A study of Homo sapiens with 12 samples.

Results

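Hyaluronan is a long, unsulfated sugar chain of the extracellular matrix, and 8 genes that make, cut or bind it are described here across 12 RNA libraries of doxorubicin-treated fibroblasts. They are 8 of the 61541 gene identifiers in the deposited tables: the synthases HAS2 and HAS3, the hyaluronan-degrading family members CEMIP and CEMIP2, the hyaluronidases HYAL2 and HYAL3, the receptor CD44 and the binding proteoglycan VCAN. The genes were named by their place in hyaluronan biology, and the set was selected on measured values of these libraries: it was chosen because the CEMIP level was far lower on gel than on plastic. The gel against plastic values of the 8 genes, and every value of CEMIP, are therefore given as a description with no test.

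The cells were IMR90, a widely used human fibroblast line from fetal lung, labelled wild type. All groups were exposed for 24 h to doxorubicin, a DNA-damaging anthracycline that drives cells into senescence, and were then cultured for 8 days or more. The 4 groups of 3 libraries each were gel of 2 kPa at 250 nM, plastic at 250 nM, gel of 2 kPa at 100 nM and plastic at 100 nM. No untreated library was analysed here, and nothing below sets the drug against its vehicle. Doses are those of the titles, in nM, although the treatment protocol writes the same numbers in µM, and the soft substrate is a hydrogel in the titles but PDMS-coated plates in the growth protocol.

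A library held 2229069 to 2730309 expected counts at 250 nM and 5887056 to 7351916 at 100 nM. Dose went with the library set: molecular identifiers are mentioned in the file names at 250 nM alone, so drug dose and library set cannot be told apart. Nothing in the labels says that replicates were separate cultures, so p-values measure the spread between these samples. Replicate 1 of gel at 250 nM had a mean correlation across genes of 0.845 with its own group, against 0.895 to 0.958 in the other 11 libraries. It and replicate 1 of plastic at 100 nM held 13.2% and 14.3% of their counts in 3 ribosomal DNA loci of chromosome 21, the lowest shares among the libraries. Fibroblast markers were all present (8 of 8 passed the expression filter, led by FN1 at a mean of 6822 CPM), and 0 of 6 endothelial and 0 of 6 leukocyte markers passed it. Of 6 epithelial markers 1 passed, KRT19, and of 6 pericyte and smooth muscle markers 2 passed, led by CSPG4.

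As background, hyaluronan is polymerised at the plasma membrane by synthases of the HAS family, which draw on sugar nucleotides of the cytosol and push the growing chain outward. Long chains are cut by hyaluronidases such as HYAL2, and in skin fibroblasts CEMIP (also called HYBID or KIAA1199) is required for hyaluronan breakdown. Cells hold the polymer at their surface through CD44, and versican, the product of VCAN, binds it to build the pericellular coat of fibroblasts.

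The promoters of CEMIP, of its paralogue CEMIP2 and of HYAL3 are shown because CEMIP and HYAL3 had the largest gel against plastic folds of the set, in opposite directions, while CEMIP2 had a small one. Each is 300 bases on the gene's strand, 250 before and 50 after the start, from RefSeq on GRCh38.p14, and capitals mark a match to the TATA motif. The RefSeq start of CEMIP2 lies inside the span that GENCODE 29 gives the gene.
CEMIP, chr15:80779120-80779419, plus strand: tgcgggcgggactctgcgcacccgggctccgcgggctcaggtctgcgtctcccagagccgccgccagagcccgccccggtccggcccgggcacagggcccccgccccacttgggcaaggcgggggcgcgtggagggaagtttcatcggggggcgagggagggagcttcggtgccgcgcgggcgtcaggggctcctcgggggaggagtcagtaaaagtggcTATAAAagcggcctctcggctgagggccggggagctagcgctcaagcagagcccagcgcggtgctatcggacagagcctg
CEMIP2, chr9:71768464-71768763, minus strand: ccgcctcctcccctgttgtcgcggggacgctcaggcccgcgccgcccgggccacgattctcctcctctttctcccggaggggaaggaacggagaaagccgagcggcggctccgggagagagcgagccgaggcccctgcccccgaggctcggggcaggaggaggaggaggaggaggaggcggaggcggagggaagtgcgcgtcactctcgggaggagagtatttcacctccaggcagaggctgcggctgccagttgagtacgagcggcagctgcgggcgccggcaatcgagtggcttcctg
HYAL3, chr3:50299356-50299655, minus strand: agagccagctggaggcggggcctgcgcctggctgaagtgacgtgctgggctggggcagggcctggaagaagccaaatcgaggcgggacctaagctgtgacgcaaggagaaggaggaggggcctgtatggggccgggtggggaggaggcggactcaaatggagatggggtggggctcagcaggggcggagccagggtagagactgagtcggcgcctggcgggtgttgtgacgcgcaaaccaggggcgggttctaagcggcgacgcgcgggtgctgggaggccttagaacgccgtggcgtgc

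The CEMIP promoter held TATAAA with its first base 30 bases before the start, the place where a TATA box usually lies. That motif occurred on either strand in 11.5% of the 35116 promoters of the table. The CEMIP2 and HYAL3 windows shown held no match to any of the 6 motifs searched on both strands, which were TATAAA, the AP-1 motif TGANTCA (in 7.71% of all promoters), the TEAD motif GGAATG (14.0%), the SMAD motif GTCTAGAC (0.202%), the CArG box (1.29%) and the NF-kB motif (5.91%). GC content was 73.0% in the CEMIP window, 70.7% in that of CEMIP2 and 68.3% in that of HYAL3, against a median of 58.7% over all promoters. Promoters were matched for 7 of the 8 genes, all but HAS2, and a second HYAL3 window, nearer the gene body, held 1 TEAD and 1 NF-kB match. The HYAL2 window held GGAATG with its first base 38 bases before the start. A match of letters is a description and says nothing of what binds there.

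**Figure D1:**
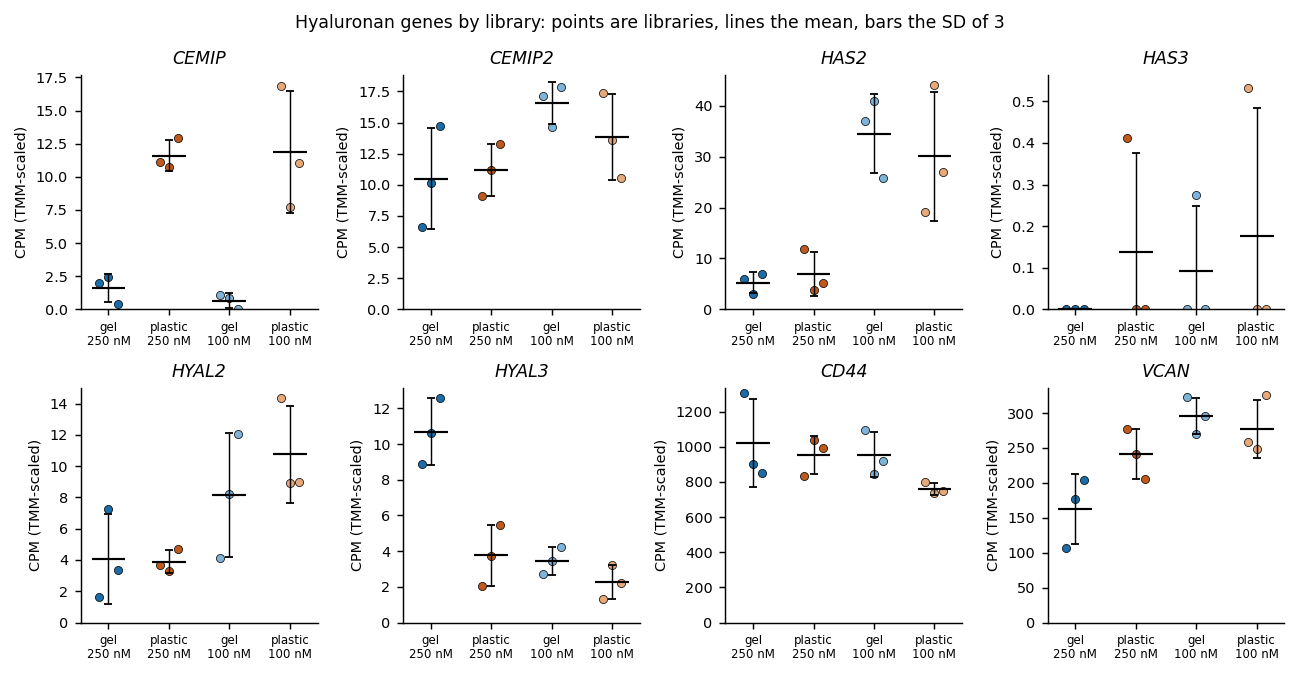
CPM (expected counts over the TMM-scaled library total, linear axes from 0) of the 8 hyaluronan genes in each of the 12 libraries, with the mean and SD of 3 libraries per group. CEMIP lies between 0 and 2.42 CPM in the 6 gel libraries and between 7.71 and 16.9 CPM in the 6 plastic libraries, HAS2 parts the doses instead, and HYAL3 stands highest on gel at 250 nM.

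CEMIP (ENSG00000103888, chromosome 15, 80779343 to 80951776, plus strand, GENCODE 29 on GRCh38) encodes a secreted protein needed for hyaluronan breakdown by fibroblasts. On gel at 250 nM it stood at 1.97, 2.42 and 0.420 CPM, against 11.1, 10.7 and 12.9 CPM on plastic at 250 nM. On gel at 100 nM it stood at 1.08, 0.821 and 0 CPM, against 16.9, 7.71 and 11.0 CPM on plastic at 100 nM. Every gel library lay below every plastic library, as in 7.6% of the 12329 genes tested at 250 nM, 9.39% at 100 nM and 1.93% at both doses. In expected counts these were 6, 5 and 1 on gel at 250 nM against 27, 23 and 33 on plastic, and 6, 6 and 0 on gel at 100 nM against 127, 50 and 70 on plastic. The library with no count allows up to 0.426 CPM, the level that 3 counts would give, which covers counting error only.

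The fitted log2 fold change of CEMIP on gel against plastic was -2.84 ± 0.68 at 250 nM (SE), a 7.15-fold lower level, and -4.22 ± 0.66 at 100 nM, 18.6-fold lower. Averaged over both doses it was -3.53 ± 0.47, or 11.5-fold lower. These folds rest on 12 counts in the 3 gel libraries at each dose. Leaving out 1 library moved the log2 change between -3.18 and -2.40 at 250 nM and between -4.75 and -3.62 at 100 nM, the smallest fall at each dose coming without replicate 3 of gel at that dose. On the log2(TPM + 1) scale, which shrinks changes of low genes, the values were -1.08 at 250 nM and -1.30 at 100 nM. The difference in the gel effect between doses was 1.38 ± 0.97 on the log2 scale.

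The gel against plastic contrasts chose these genes, so their calls in them are not given. Among all genes tested, edgeR (Benjamini-Hochberg adjustment) called 0.00811% at 250 nM, 0.227% at 100 nM (0.154% lower) and 0.754% over both doses (0.479% lower). At 250 nM that was 1 gene, while 1236 had an unadjusted p under 0.05 and DESeq2 called 97. Over the 7 hyaluronan genes that passed the expression filter the median log2 change was -0.11 at 250 nM and 0.20 at 100 nM. Over all genes tested it was -0.02 and -0.01.

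CEMIP2 (ENSG00000135048, chromosome 9, 71683366 to 71816690, minus strand), the membrane-bound paralogue of CEMIP, formerly TMEM2, did not share that pattern. It stood at 6.58, 10.2 and 14.7 CPM on gel at 250 nM, against 9.07, 11.2 and 13.3 CPM on plastic at 250 nM. The values at 100 nM were 17.2, 14.6 and 17.9 CPM on gel, against 17.4, 13.6 and 10.6 CPM on plastic. Gel and plastic libraries overlapped at both doses, with log2 changes of -0.11 ± 0.33 at 250 nM and 0.26 ± 0.29 at 100 nM. The 100 nM value turned to -0.12 on the log2(TPM + 1) scale.

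As a share of the summed TPM of both paralogues (TPM are transcript levels scaled per length and library total), CEMIP made up 9.64%, 6.56% and 0.708% on gel at 250 nM, against 21.0%, 27.4% and 29.0% on plastic at 250 nM. At 100 nM it made up 1.91%, 2.21% and 0% on gel, against 18.9%, 13.6% and 22.8% on plastic. CEMIP2 was therefore the more abundant of the 2 per length in all 12 libraries, and by more on gel. On plastic the mean CPM of CEMIP and CEMIP2 were 11.6 and 11.2 at 250 nM and 11.9 and 13.8 at 100 nM. The shares on plastic thus depend on effective length. On plastic at 250 nM that length was 7143 bases for CEMIP and 1547 to 2998 bases for CEMIP2.

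**Figure D2:**
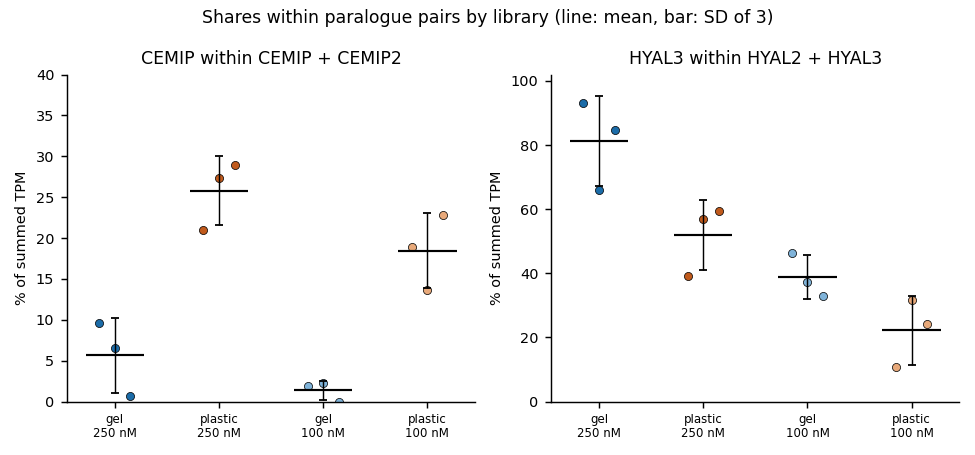
Percent of summed TPM held by CEMIP within CEMIP and CEMIP2 (left) and by HYAL3 within HYAL2 and HYAL3 (right), one point per library with the mean and SD of 3. The CEMIP share stays under 10% in the gel libraries and reaches 29.0% on plastic, and the HYAL3 share is highest on gel at 250 nM, at 65.8% to 93.2%.

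HYAL3 (ENSG00000186792, chromosome 3, 50292831 to 50299468, minus strand) belongs to the hyaluronidase family, and it lies 18321 bases from HYAL2. It stood at 8.88, 10.6 and 12.6 CPM on gel at 250 nM, against 2.06, 3.74 and 5.47 CPM on plastic at 250 nM. The 3 gel libraries all lay above the 3 plastic ones, as did 7.4% of all genes tested at this dose, and the log2 change was 1.50 ± 0.47, or 2.82-fold higher. At 100 nM the values were 2.71, 3.42 and 4.26 CPM on gel, against 1.33, 3.24 and 2.21 CPM on plastic, which overlapped, with a log2 change of 0.62 ± 0.45. Its expected counts were low, at 22 to 30 on gel and 5 to 14 on plastic at 250 nM. HYAL3 shares 3020 bases and nearly the same start, 47 bases apart, with NAA80 on the same strand. NAA80 stood at 12.8, 6.77 and 4.62 CPM on gel at 250 nM, against 4.53, 3.74 and 6.26 CPM on plastic. The expected counts of both genes were whole in all 12 libraries, so no fractional division of reads shows in them, although how reads in the shared bases were assigned is not known.

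HYAL2 (ENSG00000068001, chromosome 3, 50317790 to 50322906, minus strand), a hyaluronidase anchored to the cell surface that cuts long chains, showed overlapping substrates at both doses. It stood at 1.65, 7.25 and 3.36 CPM on gel at 250 nM, against 3.71, 3.27 and 4.69 CPM on plastic at 250 nM. The values at 100 nM were 4.15, 8.21 and 12.1 CPM on gel, against 14.3, 8.94 and 8.99 CPM on plastic. The log2 changes were 0.01 ± 0.59 and -0.40 ± 0.45. Over 20 alternatives the 250 nM value ran from -0.67, without replicate 2 of gel, to 0.39, and it kept its sign in 14. Within the pair, HYAL3 held 93.2%, 65.8% and 84.8% of the summed TPM on gel at 250 nM, against 39.3%, 57.0% and 59.3% on plastic. At 100 nM it held 46.3%, 37.4% and 32.9% on gel, against 10.7%, 31.7% and 24.3% on plastic. At 250 nM the HYAL2 part of these shares rests on 5, 15 and 8 expected counts on gel and 9, 7 and 12 on plastic. TPM also depend on effective length, which for HYAL2 was 3971 bases in replicate 1 of gel at 250 nM. In the other libraries at 250 nM it was 1799 to 2307 bases.

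HAS2 (ENSG00000170961, chromosome 8, 121612116 to 121641390, minus strand), the main hyaluronan synthase of many fibroblasts, did not part the substrates. It stood at 5.92, 2.90 and 6.91 CPM on gel at 250 nM, against 11.8, 3.74 and 5.08 CPM on plastic at 250 nM. At 100 nM the values were 37.0, 40.9 and 25.8 CPM on gel, against 19.2, 44.1 and 26.9 CPM on plastic. The substrates overlapped at both doses, and the log2 changes on gel were -0.40 ± 0.50 at 250 nM and 0.20 ± 0.37 at 100 nM. The 250 nM value turned to 0.24 without replicate 1 of plastic at 250 nM.

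HAS3 (ENSG00000103044, chromosome 16, 69105564 to 69118719, plus strand), a second synthase, did not pass the expression filter and was not tested. It had 0 counts in the 3 gel libraries at 250 nM, against 1, 0 and 0 on plastic at 250 nM. On gel at 100 nM it had 0, 2 and 0 counts, against 4, 0 and 0 on plastic at 100 nM. A count of 0 allows up to 0.399 to 1.45 CPM across the 12 libraries. HAS1, the other synthase, had 0 counts in all 12, so HAS2 supplied nearly all synthase reads.

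CD44 (ENSG00000026508, chromosome 11, 35138870 to 35232402, plus strand), the main cell-surface receptor for hyaluronan, was by far the most abundant of the 8. It stood at 1307, 904 and 848 CPM on gel at 250 nM, against 833, 1041 and 991 CPM on plastic at 250 nM. At the lower dose it stood at 1097, 848 and 922 CPM on gel, against 799, 736 and 747 CPM on plastic. The substrates overlapped at 250 nM, where the log2 change was 0.10 ± 0.20 and -0.15 without replicate 1 of gel. At 100 nM all gel libraries lay above all plastic ones, as did 9.6% of all genes tested, with a log2 change of 0.33 ± 0.20.

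VCAN (ENSG00000038427, chromosome 5, 83471465 to 83582303, plus strand), the gene of a large proteoglycan whose head domain binds hyaluronan, stood at 107, 176 and 205 CPM on gel at 250 nM, against 277, 242 and 205 CPM on plastic at 250 nM. The libraries at 100 nM gave 322, 271 and 295 CPM on gel, against 259, 248 and 325 CPM on plastic. The 3 gel libraries at 250 nM lay below the 3 plastic ones, as did 7.6% of all genes tested, though the closest of each nearly touched. At 100 nM the groups overlapped. The log2 changes on gel were -0.57 ± 0.23 at 250 nM and 0.09 ± 0.23 at 100 nM. On the log2(TPM + 1) scale the 250 nM value was -1.07.

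**Figure D3:**
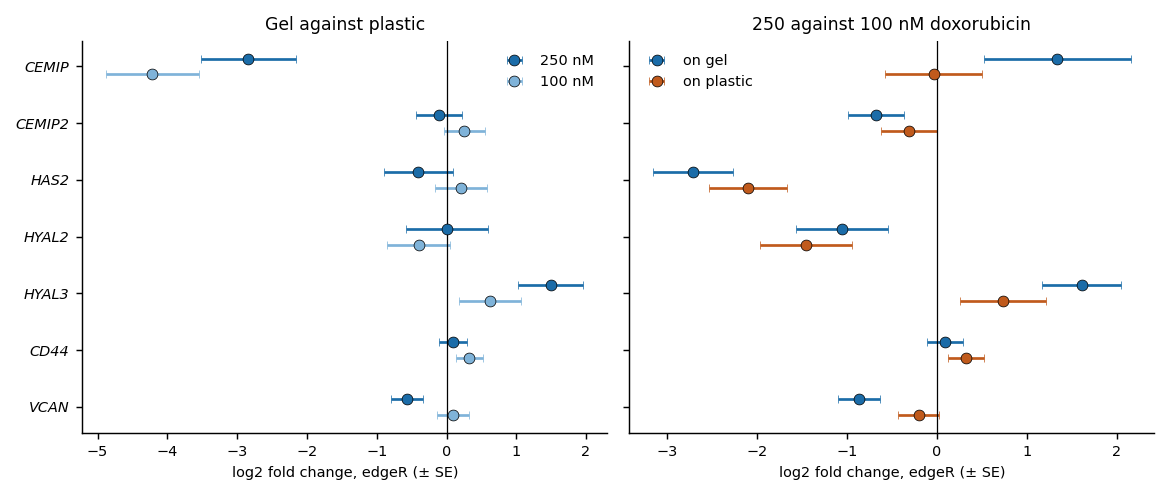
Fitted log2 fold changes (points) with their standard errors (bars) of the 7 tested hyaluronan genes, gel against plastic at each dose (left) and 250 against 100 nM on each substrate (right), with a line at 0. CEMIP lies at -2.84 and -4.22 on the left while the other 6 lie between -0.57 and 1.50, and HAS2 lies at -2.71 and -2.10 on the right.

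Whether the effect of gel differed between the doses was tested as an interaction over all genes, which the choice of these genes did not use. None of the 6 hyaluronan genes tested for it passed (edgeR, Benjamini-Hochberg adjusted p of 0.750 to 0.910), with 0 at an unadjusted p under 0.05 and 0 called by DESeq2. Of all genes 0% were called, with 779 at an unadjusted p under 0.05 and 0 called by DESeq2. The values furthest from 0 were those of HYAL3, at 0.87 ± 0.65 on the log2 scale, and VCAN, at -0.66 ± 0.33. The VCAN and HYAL3 changes at 250 nM were thus not shown to differ from those at 100 nM.

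The comparison of 250 with 100 nM asks whether levels differed between doses. The synthase HAS2 was the only hyaluronan gene called lower at 250 nM on both substrates. On gel it averaged 5.24 ± 2.09 CPM at 250 nM, against 34.6 ± 7.79 CPM at 100 nM (SD, n = 3 each), 6.54-fold lower. On plastic it averaged 6.87 ± 4.31 CPM at 250 nM, against 30.1 ± 12.7 CPM at 100 nM, 4.30-fold lower. The log2 changes were -2.71 ± 0.45 on gel (edgeR, Benjamini-Hochberg adjusted p = 0.00500) and -2.10 ± 0.43 on plastic (adjusted p = 0.0128), and no 250 nM library reached a 100 nM library on either substrate. On plastic the call was lost without replicate 2 (adjusted p = 0.0774) or replicate 3 (adjusted p = 0.0761) of plastic at 250 nM, while on gel it held in all 20 alternatives. Drug dose and library set cannot be told apart in either fall. The summed CPM of the 6 pericyte and smooth muscle markers, of which 2 passed the expression filter, also moved with dose. On gel the sum was 106 to 115 CPM at 250 nM, against 54.7 to 65.2 CPM at 100 nM. On plastic it was 85.7 to 126 CPM at 250 nM, against 53.3 to 76.1 CPM at 100 nM. Which of the 6 markers moved was not examined. None of the 6 was at 0 throughout, and their part in the differences between doses was not tested. Mitochondrially encoded genes held 6.81% to 9.31% of the counts on gel at 250 nM, against 9.62% to 10.0% on gel at 100 nM. On plastic they held 5.95% to 6.30% at 250 nM, against 8.09% to 9.29% at 100 nM. This share parted the doses on both substrates, and its part in the changes of HAS2, VCAN and HYAL3 was not tested.

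HAS2 overlaps its antisense gene HAS2-AS1 over 2098 bases, and the sources used here do not state whether counting used strand. The HAS2 estimate was fractional in 8 of 12 libraries, and its sum with HAS2-AS1 came out whole to within 0.01 in 11 of 12, so reads were divided between them. HAS2-AS1 stood at 0, 5.32 and 2.32 CPM on gel at 250 nM, against 1.50, 2.40 and 2.13 CPM on gel at 100 nM. With the counts of both genes summed, an alternative chosen after seeing the data, the log2 change was -2.24 on gel (edgeR, Benjamini-Hochberg adjusted p = 0.00497) and -1.71 on plastic (adjusted p = 0.0133).

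VCAN fell and HYAL3 rose with dose on gel. VCAN averaged 163 ± 50.0 CPM on gel at 250 nM, against 296 ± 26.0 CPM on gel at 100 nM (SD, n = 3 each), 1.82-fold lower (log2 change -0.87 ± 0.23, edgeR Benjamini-Hochberg adjusted p = 0.0270). HYAL3 averaged 10.7 ± 1.85 CPM on gel at 250 nM, against 3.46 ± 0.776 CPM on gel at 100 nM, 3.06-fold higher (log2 change 1.61 ± 0.44, adjusted p = 0.0289). Both pairs of groups were without overlap, and both calls were lost when any 1 gel library at 100 nM was left out, with adjusted p of 0.0564 to 0.0852 for VCAN and 0.0551 to 0.0975 for HYAL3. The HYAL3 call was also lost without replicate 3 of gel at 250 nM (adjusted p = 0.0754), and the VCAN call on the log2(TPM + 1) scale (adjusted p = 0.121). With the 6 gel libraries alone neither passed (adjusted p = 0.0914 for VCAN and 0.0544 for HYAL3). On plastic the log2 changes were -0.20 for VCAN (adjusted p = 0.627) and 0.74 ± 0.48 for HYAL3 (adjusted p = 0.356).

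VCAN also shares reads with an antisense gene, VCAN-AS1. Its estimate was fractional in 8 of 12 libraries and its sum with VCAN-AS1 was whole in 12 of 12. VCAN-AS1 stood at 0, 20.6 and 7.79 CPM on gel at 250 nM, against 8.24, 0 and 1.10 CPM on gel at 100 nM. With both summed the log2 change of VCAN on gel between doses was -0.80 (edgeR, Benjamini-Hochberg adjusted p = 0.0459).

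The remaining genes did not pass the test between doses. HYAL2 averaged 3.89 ± 0.728 CPM on plastic at 250 nM, against 10.8 ± 3.11 CPM on plastic at 100 nM (SD, n = 3 each), a log2 change of -1.46 ± 0.51 without overlap of the libraries (edgeR, Benjamini-Hochberg adjusted p = 0.0888). It passed without the filter on low counts (adjusted p = 0.0378), without replicate 1 of gel at 250 nM (0.0369) and with the 6 plastic libraries alone (0.0283). On gel its log2 change was -1.05 ± 0.51 (adjusted p = 0.178). CEMIP2 had log2 changes of -0.67 ± 0.31 on gel (adjusted p = 0.159) and -0.31 on plastic (adjusted p = 0.576), and CD44 of 0.09 on gel (adjusted p = 0.781) and 0.33 on plastic (adjusted p = 0.318). CEMIP, given with no test, had log2 values of 1.34 ± 0.81 on gel and -0.04 ± 0.54 on plastic.

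Of the 7 genes tested, 1 rose and 2 fell with dose on gel, where 6.91% of all genes tested were called higher and 6.90% lower. On plastic 0 rose and 1 fell, where 4.04% of all genes were called higher and 4.48% lower. Counting libraries without overlap, 1 was higher and 2 were lower at 250 nM on gel (16.5% and 19.3% of all genes), and on plastic 1 was higher, CD44, and 2 were lower, HAS2 and HYAL2 (16.5% and 19.4%). The median log2 change of the 7 genes was -0.67 on gel and -0.20 on plastic, against -0.02 and -0.03 over all genes tested.

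Levels can be set beside each other between genes only per length, and in TPM the receptor and the proteoglycan stood far above the enzymes. CD44 averaged 404 ± 132 TPM on gel at 250 nM, 374 ± 14.1 on plastic at 250 nM, 330 ± 29.6 on gel at 100 nM and 285 ± 46.7 on plastic at 100 nM (SD, n = 3 each). VCAN averaged 48.0 ± 27.8 TPM on gel at 250 nM, 88.1 ± 18.9 on plastic at 250 nM, 86.3 ± 7.18 on gel at 100 nM and 85.8 ± 20.0 on plastic at 100 nM. Together they made up 93.1% to 98.2% of the summed TPM of the 8 genes in a library.

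On gel at 250 nM the order below them was HYAL3 at 6.29 ± 0.95 TPM, CEMIP2 at 4.56 ± 2.27, HYAL2 at 1.59 ± 1.34 and HAS2 at 1.17 ± 0.50, then CEMIP at 0.203 ± 0.133 and HAS3 at 0. Each neighbour among the first 4 of these overlapped the next, and CEMIP lay below all HAS2 values. On plastic at 250 nM CEMIP2 led at 4.55 ± 1.25 TPM, above HYAL3 at 2.25 ± 0.90, HYAL2 at 1.98 ± 0.26, HAS2 at 1.61 ± 1.13 and CEMIP at 1.53 ± 0.13, which overlapped each with the next, and HAS3 was last.

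On gel at 100 nM HAS2 led the enzymes at 8.11 ± 1.82 TPM, followed by CEMIP2 at 6.84 ± 1.39, HYAL2 at 3.72 ± 1.85 and HYAL3 at 2.19 ± 0.56, neighbours that overlapped. CEMIP, at 0.0867 ± 0.0757 TPM, lay below these and overlapped HAS3. On plastic at 100 nM the order was CEMIP2 at 7.78 ± 3.26, HAS2 at 7.30 ± 2.45 and HYAL2 at 5.65 ± 2.15 TPM, which overlapped, then CEMIP at 1.76 ± 0.84 and HYAL3 at 1.47 ± 0.50, which overlapped, and HAS3. The synthase HAS2 thus stood among the leading enzymes at 100 nM on both substrates. At 250 nM it ranked just above CEMIP, overlapping it on plastic but not on gel.

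**Figure D4:**
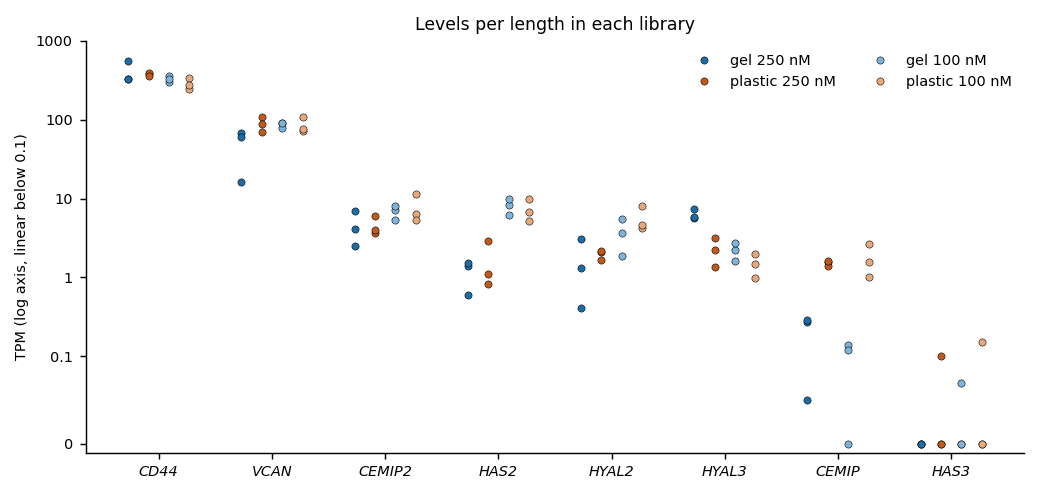
TPM of the 8 genes in each library, in 4 colours for the 4 groups, on a log axis that is linear below 0.1 so that listed zeros can be drawn. CD44 lies above VCAN in every library and both lie above the enzymes, while CEMIP falls under 0.3 TPM in the gel libraries and HAS3 stays near or at 0.

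The deposited effective length, which is a mean over a gene's isoforms weighted by their estimated use, differed for CD44 between doses. It ran from 2255 to 2488 bases (mean 2373 ± 90.4) in the 6 libraries at 250 nM, against 2703 to 2857 bases (mean 2802 ± 57.5) in the 6 at 100 nM (SD, n = 6 each). The libraries did not overlap, on gel or on plastic, and the mean difference, 250 minus 100 nM, was -430 bases. Among 9845 tested genes whose effective length ranged over more than 50 bases, 4.94% were shorter at 250 nM without overlap, and 2.16% were longer. None of the other 6 tested hyaluronan genes parted the doses in this measure. The lengths of HAS2 (4157.29 to 4157.6 bases) and HYAL3 (1552.29 to 1552.6 bases) were almost constant, so these genes could hardly do so. CD44 is known for variable exons whose use changes its extracellular stem, and which isoforms differed cannot be read from gene totals. Whether library preparation moved with this length was not tested.

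VCAN has long and short isoforms that keep or lose the exons of its sugar-bearing domains, and its effective length was 6469, 2211 and 3129 bases on gel at 250 nM, against 2638, 2541 and 2648 bases on plastic at 250 nM. At 100 nM it was 3311, 3473 and 3273 bases on gel, against 4043, 3068 and 3081 bases on plastic. Replicate 1 of gel at 250 nM stood far above all others, and its TPM for VCAN was 16.3, against 68.2 and 59.4 in the other 2 libraries of its group. TPM divides counts by this length, so the VCAN values in TPM on gel at 250 nM depend on the length estimate of that library.

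**Figure D5:**
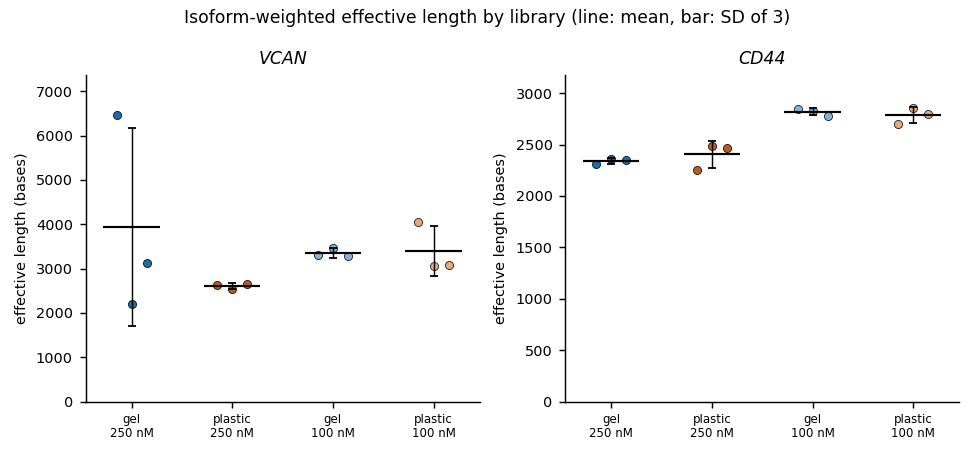
Isoform-weighted effective length in bases of VCAN (left) and CD44 (right) in each library, axes from 0, with the mean and SD of 3 per group. CD44 lies between 2255 and 2488 bases in the 250 nM libraries and between 2703 and 2857 in the 100 nM libraries, and 1 VCAN point on gel at 250 nM stands at 6469 bases.

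A wider list of 51 further genes of hyaluronan biology, chosen with earlier results of these data known, was read in the same fit, and 25 passed the expression filter. Between gel and plastic, 0 of the 25 were called at 250 nM, at 100 nM or over both doses (edgeR, Benjamini-Hochberg), with 9 above and 16 below 0 at each dose. Of all genes tested, 51.9% lay below 0 at 250 nM and 51.1% at 100 nM. At an unadjusted p under 0.05 there were 3 of the 25 at 250 nM, 2 at 100 nM and 5 over both doses, and DESeq2 called 1, 0 and 2. Over all 12329 genes tested, 1236, 1221 and 1543 had an unadjusted p under 0.05, and DESeq2 called 97, 163 and 385. The median log2 change of the 25 was -0.10 at 250 nM and -0.17 at 100 nM, against -0.02 and -0.01 over all genes tested. ADAM10, a protease that sheds the CD44 ectodomain, stood at 55.6, 52.2 and 59.6 CPM on gel at 250 nM, against 89.4, 94.4 and 88.0 CPM on plastic at 250 nM. It was the gene that DESeq2 called at 250 nM (log2 change -0.69, DESeq2 adjusted p = 0.0221), and edgeR gave -0.70 ± 0.17 with an adjusted p of 0.217.

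Over both doses the 2 that DESeq2 called were ADAM10 and LAYN, and LAYN is named here after its values were seen. LAYN, the gene of the hyaluronan receptor layilin, averaged 41.0 ± 6.12 CPM on gel at 250 nM, against 58.5 ± 7.57 CPM on plastic at 250 nM (SD, n = 3 each). At 100 nM it averaged 40.3 ± 3.40 CPM on gel, against 62.3 ± 7.35 CPM on plastic. Its gel libraries lay below its plastic libraries at both doses, as in 1.93% of all genes tested. The averaged log2 change was -0.57 ± 0.13, which did not pass in edgeR (Benjamini-Hochberg adjusted p = 0.0662) and passed in DESeq2 (adjusted p = 0.00830) and in edgeR without replicate 1 of gel at 250 nM (adjusted p = 0.0287).

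Between doses on gel, 3 of the 25 fell and 0 rose, where 6.90% of all genes tested were called lower and 6.91% higher. ADAMTS1, a protease that cleaves versican, averaged 97.7 ± 40.5 CPM on gel at 250 nM, against 298 ± 112 CPM on gel at 100 nM (SD, n = 3 each), 3.06-fold lower (log2 change -1.61 ± 0.35, edgeR Benjamini-Hochberg adjusted p = 0.0124). That call was lost with the 6 gel libraries alone (adjusted p = 0.0628). ADAM10 averaged 55.8 ± 3.69 CPM on gel at 250 nM, against 102 ± 2.76 CPM on gel at 100 nM, 1.82-fold lower (log2 change -0.87 ± 0.17, adjusted p = 0.00797). HMMR, a hyaluronan-binding protein of the mitotic spindle that rises in dividing cells, averaged 3.53 ± 2.98 CPM on gel at 250 nM, against 17.9 ± 9.15 CPM on gel at 100 nM, 4.78-fold lower (adjusted p = 0.0310).

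On plastic 1 of the 25 fell and 0 rose, a share near the 4.48% of all genes called lower there, with 4.04% called higher. HMMR averaged 7.05 ± 6.08 CPM on plastic at 250 nM, against 32.8 ± 7.51 CPM on plastic at 100 nM, 4.67-fold lower (edgeR, Benjamini-Hochberg adjusted p = 0.0332). Its call was lost without any 1 plastic library at 100 nM or without replicate 2 or 3 of plastic at 250 nM, with adjusted p of 0.0544 to 0.147. On gel it was lost without replicate 1 or 2 at 100 nM or replicate 2 or 3 at 250 nM (adjusted p of 0.0694 to 0.106), and with the 6 gel libraries alone (adjusted p = 0.0756). ADAMTS1 on plastic averaged 97.3 ± 19.6 CPM at 250 nM, against 211 ± 48.0 CPM at 100 nM (SD, n = 3 each), without overlap, with a log2 change of -1.12 ± 0.35 (edgeR, Benjamini-Hochberg adjusted p = 0.0624). It passed in 6 of 20 alternatives there, among them DESeq2 (adjusted p = 0.0200) and the 6 plastic libraries alone (adjusted p = 0.0147).

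The supply side of the pathway was present throughout. All 7 genes of precursor sugar synthesis passed the filter and 0 were called in any comparison. PGM3, which works in the route to UDP-N-acetylglucosamine, is named for its mean CPM over all 12 libraries, the highest of the 7, although it was not the highest in each group. It averaged 112 ± 25.2 CPM on gel at 250 nM, 111 ± 27.2 on plastic at 250 nM, 139 ± 9.76 on gel at 100 nM and 139 ± 41.6 on plastic at 100 nM (SD, n = 3 each). Of the other synthases and degrading enzymes 3 of 7 were tested and 0 were called in any comparison. HYAL1, the lysosomal hyaluronidase, had 9 counts in all libraries together and was not tested.

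Matrix partners were scarce, with 4 of 17 tested and 6 at 0 in every library. PTX3, a pentraxin of the hyaluronan-rich matrix, had the highest mean CPM of them over all 12 libraries, though not in each group, with a wide spread. It stood at 32.6, 12.6 and 3.78 CPM on gel at 250 nM, against 46.1, 9.81 and 10.2 CPM on plastic at 250 nM. The 100 nM values were 93.7, 15.3 and 12.1 CPM on gel, against 31.1, 38.2 and 116 CPM on plastic, and it was not called in any comparison. Receptors other than CD44 were tested for 2 of 7 genes, HMMR and LAYN, versican-cleaving proteases for 2 of 6, and CD44 linkers and sheddases for 6 of 6.

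The genes most like CEMIP across the 12 libraries were ranked by Pearson correlation of log2 CPM centred on the dose mean, among 8956 protein-coding genes with a mean of at least 5 CPM. They were ANP32E (r = 0.954), LOXL2 (0.943), CAV1 (0.940), RPS6KA2 (0.940) and IGFBP5 (0.939), described with no p because 12 libraries with the same 2 substrates enter each value. LOXL2, an enzyme that crosslinks collagen, averaged 284 CPM on gel at 250 nM, against 504 on plastic at 250 nM, and 237 on gel at 100 nM, against 479 on plastic. CAV1, a structural protein of caveolae, averaged 613 CPM on gel at 250 nM, against 1157 on plastic at 250 nM, and 655 on gel at 100 nM, against 1468 on plastic.

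For HAS2 the most alike were HLCS (r = 0.889), PSMD11 (0.881) and SLC25A25 (0.875), and for VCAN they were TLK1 (0.969), LPP (0.963) and PGBD1 (0.963). Among the 7 hyaluronan genes themselves the same measure was lowest for CEMIP and HYAL3, at -0.763, and highest for CEMIP2 and VCAN, at 0.404. CEMIP and CEMIP2 gave -0.247. In bulk libraries, fewer cells that express a gene and less of its RNA per cell cannot be told apart, which holds for every level given here.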

How the data were processed

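Polyadenylated RNA of 12 IMR90 libraries was measured. The build GRCh38 and the tools RSEM, STAR, Trimmomatic and DESeq2 1.36.0 are listed in the submitters' processing notes. Not given in the sources used here are the other versions, the annotation, the strandedness and any collapsing by molecular identifiers. The deposited expected counts are estimates per gene by RSEM, per the file headers. TPM and FPKM were deposited beside them, scaled by the authors' RSEM run for effective length and library total, as was the effective length in bases.

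Expected counts were rounded and fitted in R 4.3.3 with edgeR 4.0.16, quasi-likelihood, TMM scaling and filterByExpr over the 4 groups (12329 genes kept, 8 residual degrees of freedom, common biological coefficient of variation 0.299). P-values were adjusted by Benjamini-Hochberg over all genes within each of 6 comparisons and called under 0.05. CPM use effective library sizes, and ± is the SD of 3 libraries for a level and the SE for a log2 change. The median SE of a log2 change over all genes was 0.25 to 0.49. Alternatives were other size factors, no filter, DESeq2 1.42.0, limma 3.58.1 on log2(TPM + 1), a replicate block, and fits without each library, without the 2 that stand apart or with 6 libraries only. Symbols matched 61369 of 61541 identifiers. The edgeR fit was tested on simulated data.

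The members and lists were chosen with earlier results of these data known. Named were all 8 members, genes of the wider list called in any comparison or, where a subgroup had none, its most abundant tested gene, and the 5 or 3 genes most like CEMIP, HAS2 and VCAN. The result of 1 gene under this rule is not reported here. CD44-AS1, IFRD2 and TUSC2 overlap CD44, HYAL3 and HYAL2, whose levels are uncertain to that extent.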

Additional observations from a re-analysis of the deposited data

How the results depend on the processing

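HAS2 kept its direction between doses in all 20 alternatives on each substrate, and no result between doses with a call turned round. The fall of CEMIP on gel chose the set, so its direction is not counted here. Calls among all genes for gel against plastic at 250 nM were 231 with no filter, 97 by DESeq2 and 3 on TPM. They were 2 with the replicate block, 7 without both libraries that stand apart, 0 with 6 libraries and 1 to 2 without 1 library. The wider list gave 1 by DESeq2. At 100 nM the calls among all genes were 335 with no filter, 163 by DESeq2, 7 on TPM and 57 without both. With 6 libraries they were 5, and without 1 library 3 to 104. Over both doses they were 573 with no filter, 385 by DESeq2, 53 on TPM, 203 without both and 40 to 253 without 1 library, and the wider list gave 2 with no filter, 2 by DESeq2, 2 without both and 0 to 2 without 1 library. The interaction gave 129 with no filter.

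On plastic between doses the counts were 1667 by DESeq2, 2128 without both and 132 to 2282 without 1 library. The hyaluronan genes gave 2 with no filter, 2 with 6 libraries and 0 to 2 without 1 library, and the wider list 3 with no filter, 2 by DESeq2, 3 on TPM, 6 without both, 3 with 6 libraries and 0 to 4 without 1 library. On gel between doses they were 443 with 6 libraries and 606 to 1797 without 1 library, with 1 hyaluronan gene and 1 list gene at 6 libraries, and 1 to 3 and 2 to 4 without 1 library. The cause of these shifts was not tested, except that 6 libraries leave fewer samples.

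No shared effect of the replicate number was visible: the correlation of deviations between same-numbered libraries was -0.236 to 0.141. The labels do not say whether same-numbered libraries belonged together, and these values cannot settle it. With the replicate as a block, calls among all genes for gel against plastic were 2 at 250 nM and 31 at 100 nM. They were 105 over both doses, 0 for the interaction, 1074 between doses on plastic and 1665 on gel. The number of calls did not change in the wider list, nor between doses among the hyaluronan genes.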
